A study of Homo sapiens with 18 samples.

Results

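The 10 genes described here place a cell on the scale between an epithelial and a mesenchymal state. They were chosen by symbol and matched to the Entrez identifiers of the deposited table, where all 10 were found among 18475 genes. They are 3 epithelial genes (CDH1, EPCAM and ESRP1), 2 mesenchymal genes (CDH2 and VIM) and 5 transcription factors (ZEB1, ZEB2, SNAI1, SNAI2 and TWIST1). RNA-seq was performed on 3 human lung lines, each with 3 control libraries and 3 libraries after 10 Gy of X-rays, 18 libraries in 6 groups. BEAS-2B is a bronchial epithelial line immortalized with SV40 genes, A549 is a non-small cell lung cancer line and H446 is a small cell lung cancer line. Irradiated cells were harvested at 24 h, and no separate time is given for the controls. The sample titles call the controls "before" and the irradiated libraries "after", and whether the controls were harvested earlier is not stated. The labels name no genetic change and no agent besides radiation. They do not say whether the libraries of a group came from separate cultures, so every p-value measures the spread between these libraries, which may be technical.

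Epithelial cells are held together by E-cadherin, the protein of CDH1, and many carry the surface glycoprotein EpCAM. In an epithelial to mesenchymal transition, CDH1 is repressed by zinc finger proteins of the ZEB and SNAI families and by TWIST1, while N-cadherin (CDH2) and the intermediate filament vimentin (VIM) become abundant. ESRP1 is a splicing factor of epithelial cells that is lost in the same transition. Intermediate states, with genes of both kinds, are common in carcinoma lines.

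Values are given as FPKM (fragments scaled to transcript length and to the reads of the library), which can be compared between genes because of the scaling to length. The total per library lay between 461255 and 529936 FPKM. The files hold no read counts, so the depth behind each value is unknown and no counting interval can be given. Group values are means ± SD of 3 libraries. Differences and their standard errors (SE) are on the log2(FPKM + 1) scale, which understates the change of genes at low FPKM, and were called at a Benjamini-Hochberg adjusted p under 0.05 from limma over all genes tested.

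One library stood apart from its group. Over 10 p53 target genes, the median difference from the control mean of BEAS-2B was 1.13 in irradiated replicate 1 and 1.41 in replicate 3, but 0.06 in replicate 2. In A549 the same median was between 1.40 and 1.52 in the irradiated libraries, and in H446 it was between -0.05 and 0.03. Responses of BEAS-2B, and their differences from other lines where called, are therefore given with and without irradiated replicate 2. That library was singled out from these same data, and only irradiated replicates 1 and 3 remain without it. The p-values of the fits without it do not allow for this choice.

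The lines were checked against markers of their labelled type. A549 controls held 1529 ± 8.63 FPKM of ALDH1A1 and 486 ± 1.63 FPKM of AKR1B10, both near 0 in the other lines. The other 6 genes of that list did not set A549 apart in this way. AKR1C1 and AKR1C2 were at 221 and 239 FPKM in A549 but also at 146 and 142 in H446 controls, KRT8 and KRT18 were highest in H446, and the lung genes SFTPB and NKX2-1 were at 0.02 and 0.07 FPKM in A549. BEAS-2B controls held 165 ± 7.73 FPKM of the basal keratin KRT17, while KRT14 was listed at 0 and KRT5 reached at most 0.03 FPKM. This list did not set BEAS-2B apart. TP63 was lowest there, at 0.16 FPKM against 0.56 in A549 and 0.84 in H446 controls. KRT14 was at 2.17 FPKM in H446 controls, where KRT8, KRT17 and KRT18 were also higher than in BEAS-2B. BEAS-2B controls also held 112 ± 5.21 FPKM of THY1 and 11.7 ± 2.10 FPKM of PDGFRB, surface proteins of fibroblasts. The summed level of 8 fibroblast markers in them was 130 to 145 FPKM, against 12.6 to 13.9 in A549 and 23.8 to 26.0 in H446 controls. THY1 made up most of that sum. COL1A1 was at 8.40 FPKM in BEAS-2B and 8.63 in A549, LUM at 3.60 in BEAS-2B and 16.1 in H446 and PDGFRA at 0.05 in BEAS-2B and 1.82 in A549, and the collagen COL3A1 and the proteoglycan DCN were at or near 0 in BEAS-2B and higher in H446. H446 controls did not show the markers of small cell lung cancer. In these controls the highest value was 0.05 FPKM for CHGA, 0.29 for SYP, 0.33 for POU2F3 and 0.01 for NCAM1, so that none reached 1 FPKM. NEUROD1 and INSM1 were not analysed here. H446 controls held 1368 ± 21.9 FPKM of KRT8 and 759 ± 35.6 FPKM of KRT17, and the line is called H446 below as its labels do. KRT8 and KRT18 have many processed pseudogenes whose reads may be shared with them.

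In unirradiated cells, all 3 lines lay towards the mesenchymal side by their cadherins and vimentin, and CDH1 was above 1 FPKM in A549 alone. VIM ranked 85 or higher of 18475 genes in each line, and CDH2 was above at least 87.1% of all genes, while EPCAM and ESRP1 were low in all 3 lines. ZEB1, ZEB2 and TWIST1 were above 1 FPKM in every library. The plot of the 10 genes by library shows these levels.

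**Figure D1:**
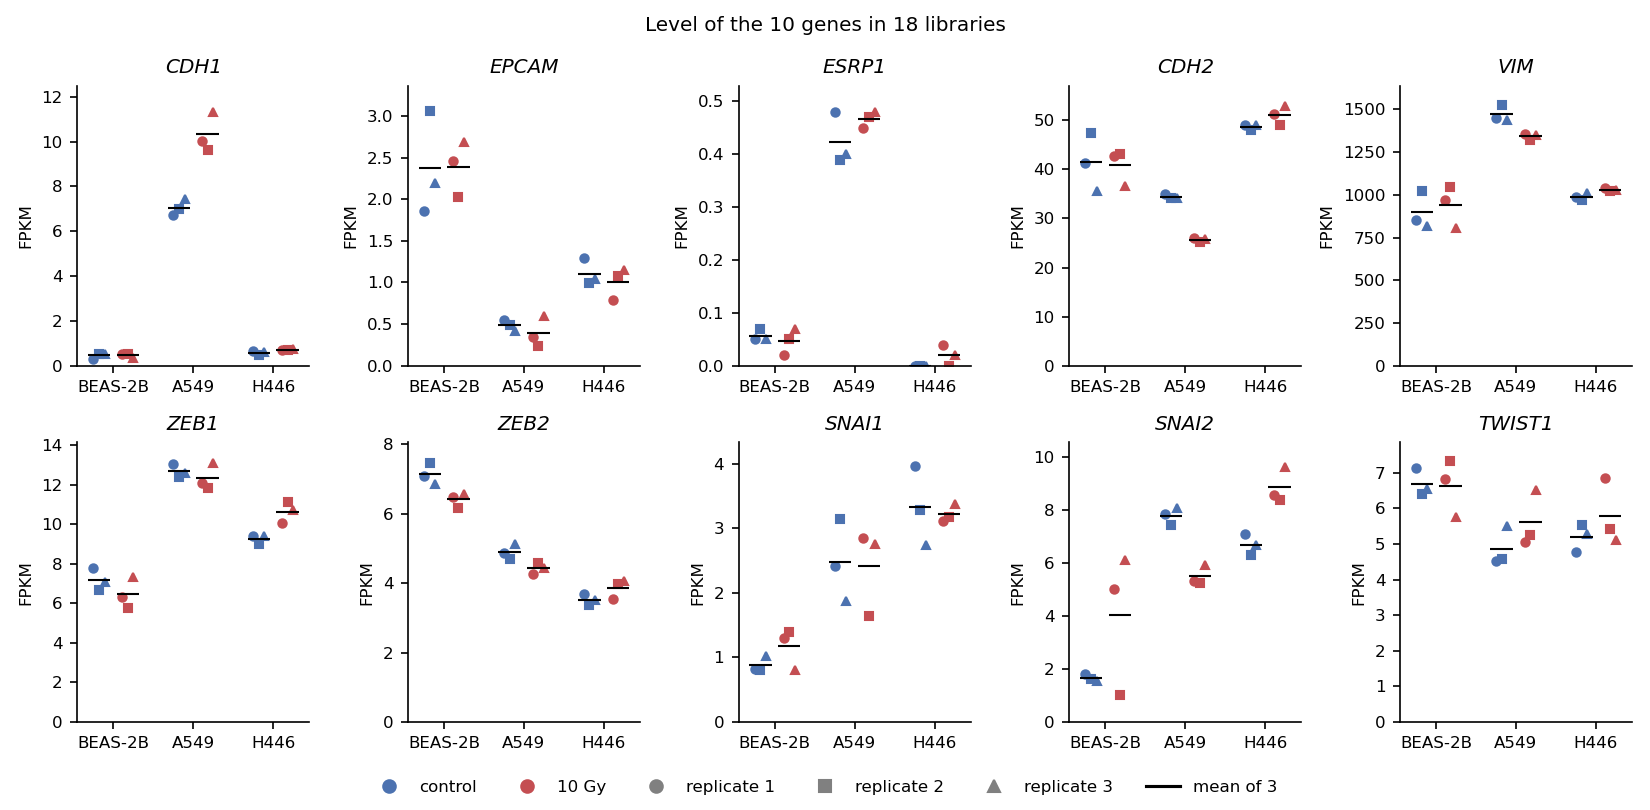
FPKM of each of the 10 genes (vertical axis from 0, its own range for each gene) in the 3 lines, with control libraries in blue, libraries after 10 Gy in red, a marker shape for each replicate number and a black bar at the mean of 3. CDH1 is above 1 FPKM in A549 alone, and SNAI2 in irradiated BEAS-2B is split between 1.02 FPKM in replicate 2 and 5.0 and 6.12 FPKM in the others.

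CDH1 (Entrez 999, chr16:68737225-68835548, plus strand of GRCh38 in GENCODE 29) was measured at 6.74, 6.98 and 7.44 FPKM in A549 controls. BEAS-2B controls held 0.31, 0.53 and 0.54 FPKM, and H446 controls 0.66, 0.49 and 0.61 FPKM. A549 was 15.3 times as high as BEAS-2B in mean FPKM, a difference of 2.47 (SE 0.08, adjusted p 6.70e-16), and H446 was below A549 by 2.34 (SE 0.08, adjusted p 1.31e-15). CDH1 passed the filter through A549 alone, where it was high, and lay below the filter in both other lines. BEAS-2B and H446 overlapped, with a difference of 0.12 (95% interval -0.04 to 0.29, adjusted p 0.153). With quantile normalization that difference was 0.27 with an adjusted p of 0.00466.

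EPCAM (Entrez 4072, chr2:47345158-47387601, plus strand) had the opposite order, with BEAS-2B highest and A549 lowest. BEAS-2B controls held 1.86, 3.06 and 2.19 FPKM, H446 controls 1.29, 0.99 and 1.04 FPKM and A549 controls 0.55, 0.49 and 0.42 FPKM. The lines did not overlap. A549 was lower than BEAS-2B by 1.17 (SE 0.12, adjusted p 2.92e-08), and H446 lay between them.

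ESRP1 (Entrez 54845, chr8:94641074-94707466, plus strand) never passed the filter of at least 1 FPKM in 3 of the 6 libraries of a line. It was listed at 0 in the 3 H446 controls, at 0.05, 0.07 and 0.05 FPKM in BEAS-2B controls and at 0.48, 0.39 and 0.40 FPKM in A549 controls. The 3 lines did not overlap, with an exact two-sided permutation p of 0.10 for each pair, the smallest that 3 against 3 libraries allow. Its paralog ESRP2, which regulates the same kind of splicing, did not follow it. ESRP2 stood at 13.0 ± 0.08 FPKM in H446, 2.27 ± 0.35 FPKM in BEAS-2B and 0.09 ± 0.02 FPKM in A549 controls, so A549, the line with the most CDH1, held the least ESRP2 of the 3.

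CDH2 (Entrez 1000, chr18:27950966-28177446, minus strand) was high in every line. H446 controls held 49.0, 48.1 and 49.0 FPKM, BEAS-2B controls 41.4, 47.5 and 35.7 FPKM and A549 controls 34.9, 34.1 and 34.1 FPKM. The lines did not overlap, and H446 was 1.42 times A549 (difference 0.49, SE 0.08, adjusted p 8.32e-06). A549 was lower than BEAS-2B by 0.25 (SE 0.08, adjusted p 0.00468), which fell to 0.14 with an adjusted p of 0.0876 after quantile normalization. H446 was 0.23 above BEAS-2B (SE 0.08, adjusted p 0.00851), and without BEAS-2B control replicate 3 this was 0.13 with an adjusted p of 0.0784.

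VIM (Entrez 7431, chr10:17228259-17237593, plus strand) was the most abundant of the 10 genes. A549 controls held 1451, 1523 and 1438 FPKM, H446 controls 985, 972 and 1013 FPKM and BEAS-2B controls 851, 1024 and 819 FPKM, which is rank 36, 61 and 85 of 18475 genes by mean. A549 was 1.64 times BEAS-2B (difference 0.72, SE 0.08, adjusted p 1.81e-07). BEAS-2B and H446 overlapped (0.15, SE 0.08, adjusted p 0.111), a difference that was called with equal totals (0.25, adjusted p 0.0161), with quantile normalization (0.39, adjusted p 0.000372) and without BEAS-2B control replicate 2 (0.24, adjusted p 0.00667). VIM-AS1 overlaps VIM on the opposite strand, ZEB1-AS1 overlaps ZEB1 and ZEB2-AS1 overlaps ZEB2, and the counting is not stated to use strand, so reads of these pairs cannot be told apart.

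The stretches upstream of CDH2, VIM and ZEB1 are shown because the first and the second fell together in irradiated A549, and because ZEB1 encodes the protein that binds the hexamer CAGGTG, an E-box. They hold the 250 bases before the first listed start of each gene, from RefSeq on GRCh38.p14, written 5′ to 3′ on the gene's strand, with CAGGTG or its reverse complement CACCTG in capitals. The table held starts for 4 of the 10 genes. The stretch of CDH2 lies before a RefSeq start and within the gene as GENCODE 29 bounds it.
CDH2, chr18:28177131-28177380, minus strand: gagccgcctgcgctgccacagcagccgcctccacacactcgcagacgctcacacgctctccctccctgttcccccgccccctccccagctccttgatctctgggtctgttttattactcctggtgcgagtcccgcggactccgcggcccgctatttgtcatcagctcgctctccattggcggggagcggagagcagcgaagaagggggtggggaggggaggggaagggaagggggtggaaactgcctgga
VIM, chr10:17227991-17228240, plus strand: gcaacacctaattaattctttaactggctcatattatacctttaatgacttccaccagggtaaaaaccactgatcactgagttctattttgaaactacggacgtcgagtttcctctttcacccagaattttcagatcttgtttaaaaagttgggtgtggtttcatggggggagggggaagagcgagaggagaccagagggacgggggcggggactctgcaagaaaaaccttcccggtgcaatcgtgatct
ZEB1, chr10:31318167-31318416, plus strand: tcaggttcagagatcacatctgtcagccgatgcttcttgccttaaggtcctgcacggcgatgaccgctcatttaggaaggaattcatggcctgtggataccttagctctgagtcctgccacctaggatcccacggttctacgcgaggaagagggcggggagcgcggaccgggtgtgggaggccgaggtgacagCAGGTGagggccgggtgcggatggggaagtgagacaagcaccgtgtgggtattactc
The hexamer was found on neither strand of the CDH2 and VIM stretches, and 1 time upstream of ZEB1, where it begins 57 bases before the start. Of 35116 upstream stretches of this length in the table, 6143 (17.5%) held it. Of the 11 stretches listed for the 4 genes, some of which belong to the 7 starts of ZEB1, 2 held it, both at starts of ZEB1. The stretch upstream of CDH2 had 66.0% G and C and 17 CG pairs, and that of VIM 46.0% and 8.

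The transcription factors did not share 1 order among the lines. ZEB1 (Entrez 6935, chr10:31318495-31529814, plus strand) was highest in A549 at 13.1, 12.4 and 12.6 FPKM, then H446 at 9.41, 9.01 and 9.40 FPKM, then BEAS-2B at 7.77, 6.67 and 7.06 FPKM. ZEB2 (Entrez 9839, chr2:144364364-144524583, minus strand), which binds the same E-box, had another order, with BEAS-2B at 7.10, 7.47 and 6.85 FPKM, A549 at 4.87, 4.70 and 5.13 FPKM and H446 at 3.69, 3.37 and 3.52 FPKM. The lines did not overlap in either gene. For ZEB1, A549 was above BEAS-2B by 0.75 (SE 0.07, adjusted p 1.35e-08) and H446 by 0.33 (SE 0.07, adjusted p 0.000322). For ZEB2, H446 was 0.494 times BEAS-2B in mean FPKM (difference -0.85, SE 0.06, adjusted p 1.76e-10).

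SNAI1 (Entrez 6615, chr20:49982999-49988886, plus strand), which encodes Snail, was low in BEAS-2B controls at 0.82, 0.80 and 1.02 FPKM. A549 controls held 2.41, 3.14 and 1.88 FPKM and H446 controls 3.97, 3.29 and 2.75 FPKM. Both cancer lines were above BEAS-2B without overlap, H446 by 1.2 (SE 0.15, adjusted p 4.64e-07) and A549 by 0.87 (SE 0.15, adjusted p 2.26e-05). H446 and A549 overlapped. Their difference of 0.33 (SE 0.15, adjusted p 0.0489) was lost when A549 control replicate 1 or 3, or H446 control replicate 1 or 2, was left out, with differences of 0.32, 0.20, 0.22 and 0.33 and adjusted p between 0.0838 and 0.248, after removal of the GC trend (0.26, adjusted p 0.0795), without a filter (adjusted p 0.0828) and with a pseudocount of 0.1 (0.43, adjusted p 0.0802).

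SNAI2 (Entrez 6591, chr8:48917604-48921740, minus strand), which encodes Slug, was also lowest in BEAS-2B controls, at 1.79, 1.63 and 1.53 FPKM. A549 controls held 7.85, 7.43 and 8.08 FPKM and H446 controls 7.08, 6.30 and 6.68 FPKM. A549 was 4.72 times and H446 4.05 times BEAS-2B in mean FPKM (differences 1.73 and 1.54, both with SE 0.28, adjusted p 1.21e-05 and 5.08e-05). The SE is wide because the fit of 18 libraries includes irradiated BEAS-2B. H446 was below A549 without overlap, by 0.19 with an adjusted p of 0.524 in that fit and 0.00896 in the fit of the 6 controls of these lines.

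TWIST1 (Entrez 7291, chr7:19020991-19117672, minus strand), a basic helix-loop-helix factor, was highest in BEAS-2B controls at 7.12, 6.40 and 6.55 FPKM. A549 controls held 4.52, 4.58 and 5.51 FPKM and H446 controls 4.77, 5.53 and 5.28 FPKM. A549 was lower than BEAS-2B by 0.39 (SE 0.11, adjusted p 0.00212) and H446 by 0.31 (SE 0.11, adjusted p 0.0109), the latter not called with equal totals (-0.22, adjusted p 0.0716) or without H446 control replicate 1 (-0.26, adjusted p 0.0512). The cancer lines overlapped and did not differ beyond their spread (0.08, 95% interval -0.14 to 0.30).

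Of the 9 genes tested between controls, 9 were called in A549 against BEAS-2B (83.8% of all genes tested were), 7 in H446 against BEAS-2B (81.1%) and 7 in H446 against A549 (83.2%). With an absolute difference of at least 1 in addition, the counts were 3 (26.8% of all genes), 2 (23.8%) and 1 (27.8%). Without the limit of 1, the shares are not far from those of all genes, since the lines differ in most of what they express. With it, 1 of 9 genes in H446 against A549 lay below the 27.8% of all genes, and 9 genes are too few to read from this. The 3 comparisons share their control libraries.

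Other genes of the same programme were described by lists. Of 42 tested genes of epithelial junctions and surface, 17 were higher and 18 lower in A549 than in BEAS-2B controls (median difference 0.02, against -0.07 for all genes), where 38.3% of all genes tested were higher and 45.4% lower. In H446, 17 were higher and 17 lower than in BEAS-2B (median -0.03, against -0.09), where 35.2% of all genes were higher and 45.9% lower. The adhesion glycoprotein CD24 stood at 105 ± 3.31 FPKM in A549 and 17.2 ± 1.11 in BEAS-2B, and the tight junction gene CLDN4 at 19.3 ± 0.61 FPKM in H446 against 0.26 ± 0.16 in BEAS-2B. Among 12 tested epithelial regulators, 10 were higher in A549 and 2 lower, with ESRP2 among the latter, and 6 were higher and 3 lower in H446. A gene entered these tests when it passed the filter in any line, and 6 regulators did so in BEAS-2B, 10 in A549 and 7 in H446. Of the junction and surface genes, 35 passed in BEAS-2B, 34 in A549 and 36 in H446. Genes that passed only in a line where they were high had to be higher there, so nothing is read from the counts and medians of either list. FOXA2, a factor of endodermal epithelia, was at 31.0 ± 0.75 FPKM in A549 and listed at 0 in BEAS-2B and H446 controls. EHF, an epithelial ETS factor, was at 6.45 ± 0.36 FPKM in A549 and 5.58 ± 0.28 in H446 against 0.02 ± 0.02 in BEAS-2B.

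Mesenchymal genes beyond CDH2 and VIM differed between the lines by gene. Of 45 tested, 19 were higher and 23 lower in A549 than in BEAS-2B controls (median -0.19, against -0.07 for all genes), and 15 were higher and 25 lower in H446 (median -0.36, against -0.09), beside the shares of all genes given above. The filter was passed by 40 of them in BEAS-2B, 36 in A549 and 34 in H446. Genes that passed only in a line where they were high had to be lower elsewhere, so nothing is read from these counts and medians. The matrix protein SPARC was at 286 ± 28.7 FPKM in BEAS-2B and 0.16 ± 0.10 in H446, and the myosin light chain MYL9 at 252 ± 14.7 FPKM in BEAS-2B and 0.54 ± 0.04 in A549. S100A4, a calcium-binding protein of motile cells, went the other way, at 499 ± 32.0 FPKM in H446, 145 ± 2.17 in A549 and 2.2 ± 0.33 in BEAS-2B. The proteoglycan VCAN and the cadherin CDH11 were high in A549, at 101 ± 6.52 and 50.1 ± 2.49 FPKM, against 0.05 ± 0.05 and 1.15 ± 0.12 in H446. Of 18 other transition factors tested, 13 were higher and 4 lower in A549 than in BEAS-2B, and 9 higher and 5 lower in H446. Only 13 of the 18 passed the filter in BEAS-2B, and the remaining 5 entered through a cancer line alone, so nothing is read from these counts either. The chromatin protein HMGA2 was at 23.1 ± 0.87 FPKM in A549 and 2.2 ± 0.48 in BEAS-2B, and TWIST2, the paralog of TWIST1, at 20.4 ± 1.18 FPKM in H446 and 3.07 ± 0.15 in BEAS-2B. Of 11 splicing factors, MBNL3 was at 15.6 ± 0.32 FPKM in H446 and 0.02 in both other lines.

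The question of the second set of comparisons was how each line responded to irradiation. In A549, CDH1 rose while CDH2, VIM and SNAI2 fell. In H446, SNAI2 and ZEB1 rose, and in BEAS-2B no gene of the 10 was called. The size of each called change was under 1 on the log2 scale. Without BEAS-2B irradiated replicate 2, SNAI2 was called in that line, at 1.30 (adjusted p 0.000137). The library left out was chosen from these data and was also the lowest in SNAI2, at 1.02 FPKM, and the p-value does not allow for that.

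**Figure D2:**
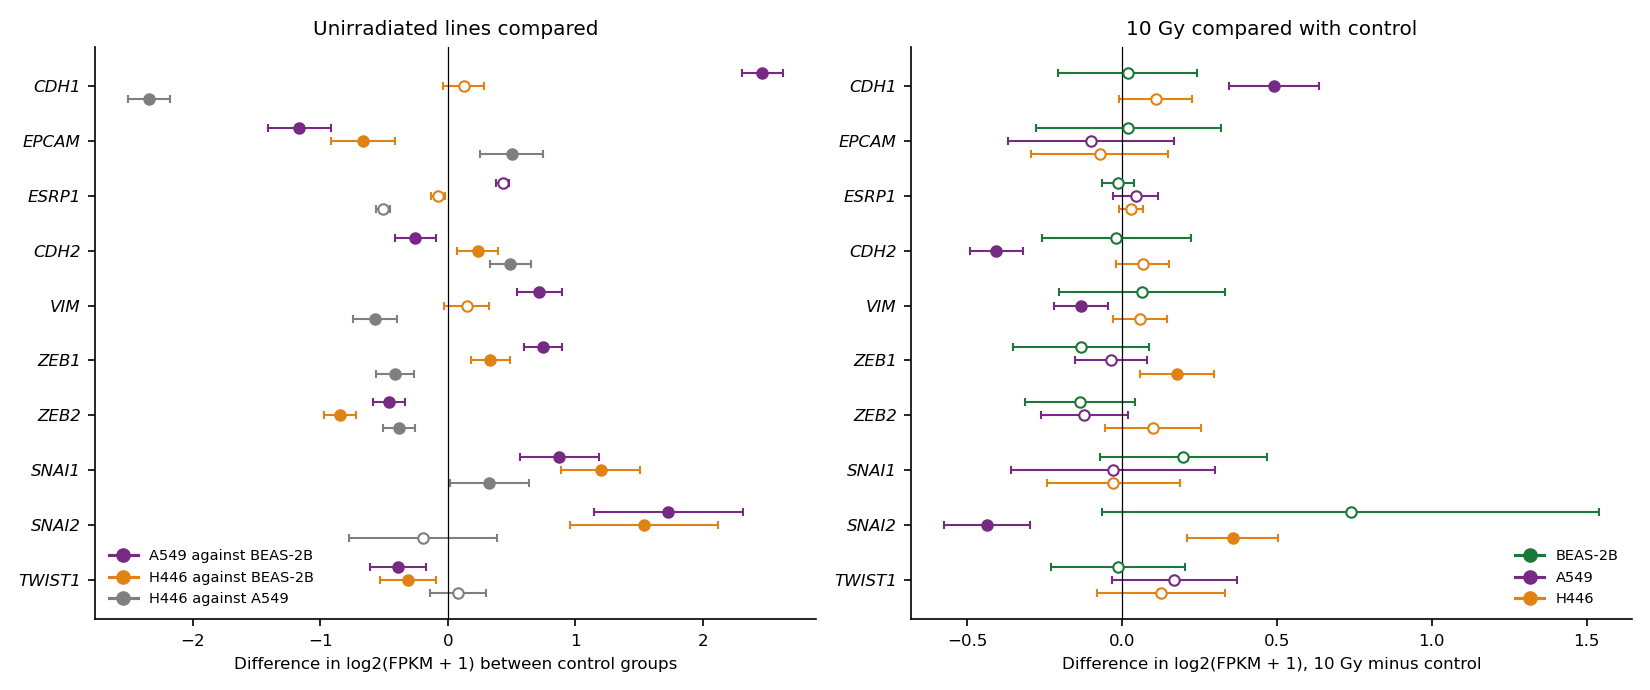
Difference in log2(FPKM + 1) with its 95% interval from limma for each of the 10 genes, between control groups of the lines (left) and between 10 Gy and control in each line (right). Filled circles are called at an adjusted p under 0.05 and open circles are not, including genes under the filter, whose values come from the fit without it. CDH1 in A549 lies at 0.49 and CDH2 at -0.41, and SNAI2 in BEAS-2B has the widest interval, from -0.06 to 1.54.

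In A549, CDH1 was at 10.01, 9.65 and 11.3 FPKM after 10 Gy, each above the highest control at 7.44 FPKM. The difference was 0.49 (SE 0.07, adjusted p 7.86e-05). CDH2 was at 26.0, 25.2 and 25.9 FPKM, each below the lowest control at 34.1 FPKM. It fell to 0.747 times the control mean (difference -0.41, SE 0.04, adjusted p 5.25e-06). Both calls held in the other settings, from 0.43 to 0.54 for CDH1 and from -0.42 to -0.37 for CDH2, with the exception of a limit of 1 on the absolute difference, which neither reached.

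VIM in A549 was at 1354, 1323 and 1351 FPKM after 10 Gy, all below the lowest control at 1438 FPKM. It fell to 0.913 times the control mean (difference -0.13, SE 0.04, adjusted p 0.0161). The call was lost without A549 control replicate 2 (-0.11, adjusted p 0.0602), without A549 irradiated replicate 2 (-0.12, adjusted p 0.0583) and in the fit of all 18 libraries (adjusted p 0.225).

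SNAI2 in A549 was at 5.32, 5.26 and 5.92 FPKM after 10 Gy, below all controls, the lowest of which was 7.43 FPKM. It fell to 0.706 times the control mean (difference -0.44, SE 0.06, adjusted p 0.000135). In the fit of all 18 libraries, which shares the spread of irradiated BEAS-2B, the adjusted p was 0.228.

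The other transcription factors did not pass the test in A549. ZEB1 was at 12.1, 11.9 and 13.1 FPKM (-0.04, 95% interval -0.15 to 0.08) and ZEB2 at 4.25, 4.59 and 4.43 FPKM (-0.12, 95% interval -0.26 to 0.02), the latter below its controls without overlap. SNAI1 was at 2.85, 1.64 and 2.76 FPKM (-0.03, 95% interval -0.36 to 0.30). TWIST1 was at 5.06, 5.26 and 6.52 FPKM (0.17, 95% interval -0.03 to 0.37), and without A549 control replicate 3 it was called at 0.25 with an adjusted p of 0.0495. EPCAM and ESRP1 were under the filter. EPCAM was at 0.34, 0.24 and 0.60 FPKM (exact permutation p 0.50) and ESRP1 at 0.45, 0.47 and 0.48 FPKM (exact permutation p 0.40), both overlapping their controls. In all, 1 of 8 tested genes rose and 3 fell in A549, where 51.7% of all genes tested were called, 25.3% higher and 26.4% lower.

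The balance of the cadherins, as log2 of (CDH1 + 1)/(CDH2 + 1), summed up the A549 change. It moved from -2.14 ± 0.08 in A549 controls (range -2.21 to -2.06) to -1.24 ± 0.10 after 10 Gy (range -1.30 to -1.12). In BEAS-2B it was -4.86 ± 0.25 and -4.82 ± 0.03, and in H446 -4.97 ± 0.07 and -4.93 ± 0.03, so with a pseudocount of 1 these groups overlapped within their lines. With a pseudocount of 0.1 the H446 groups did not overlap, at -6.35 to -6.01 in controls and -5.99 to -5.98 after 10 Gy. CDH2 remained above CDH1 in all 18 libraries. The plot of the cadherins shows the A549 libraries apart from those of the other lines.

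**Figure D3:**
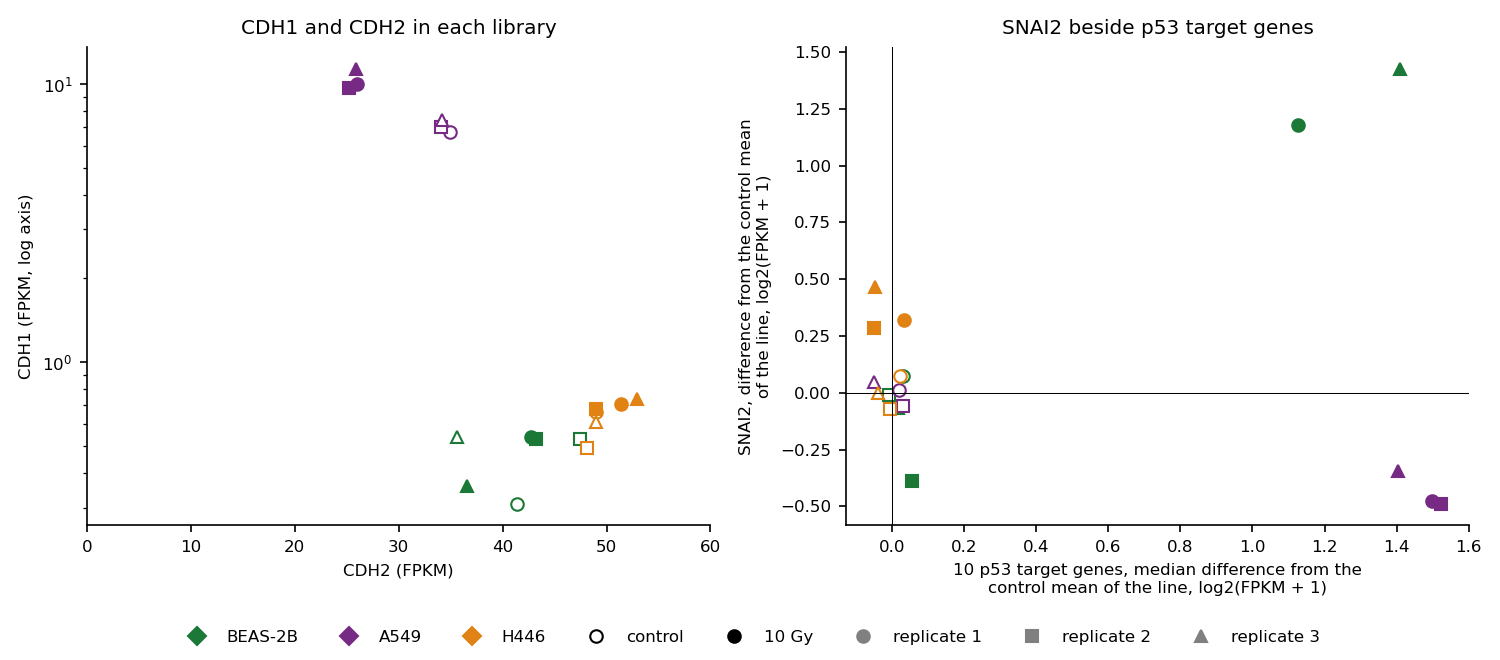
Left: CDH1 (FPKM, log axis) against CDH2 (FPKM) in each of 18 libraries. Right: SNAI2 against the median of 10 p53 target genes in each library, both as the difference from the control mean of the line in log2(FPKM + 1). Colours are lines, open markers controls, filled markers 10 Gy and shapes replicate numbers. BEAS-2B irradiated replicates 1 and 3 are high on both axes and replicate 2 is not, the A549 libraries after 10 Gy are high in p53 targets and low in SNAI2, and those of H446 are near 0 in p53 targets and above 0 in SNAI2.

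In H446, SNAI2 was at 8.58, 8.36 and 9.62 FPKM after 10 Gy, each above the highest control at 7.08 FPKM. It rose 1.32-fold (difference 0.36, SE 0.07, adjusted p 0.0022). In the fit of all 18 libraries the adjusted p was 0.385. ZEB1 was at 10.04, 11.1 and 10.7 FPKM, each above the highest control at 9.41 FPKM. It rose 1.15-fold (difference 0.18, SE 0.05, adjusted p 0.0241). The call was lost without H446 control replicate 1, 2 or 3 (0.19, 0.16 and 0.19, adjusted p 0.0532, 0.0879 and 0.0521) and without irradiated replicate 2 or 3 (0.15 and 0.17, adjusted p 0.0854 and 0.0622). It was also lost without a filter (adjusted p 0.0541) and in the fit of all 18 libraries (adjusted p 0.0798).

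The GC content of transcripts moved with treatment in H446 and varied among the BEAS-2B libraries. The Spearman correlation of a gene's deviation with its GC content, over 11378 genes, was 0.35 to 0.46 in the 3 controls and -0.50 to -0.11 in the 3 irradiated libraries. In BEAS-2B, over 11641 genes, it was -0.63, 0.01 and -0.38 in controls and 0.45, 0.71 and -0.31 in irradiated replicates 1, 2 and 3, so replicate 2, the library that stood apart, had the highest value of the 18. With the GC trend removed, SNAI2 in BEAS-2B was at 0.80 with an adjusted p of 0.518. ZEB1 is AT-rich, with 38.5% G and C in its longest transcript, and SNAI2 has 41.4%. With the GC trend removed, ZEB1 in H446 was at 0.11 with an adjusted p of 0.105 and SNAI2 at 0.31 with an adjusted p of 0.00451.

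The remaining genes of H446 stayed within the test's threshold. CDH2 was at 51.4, 49.0 and 52.9 FPKM (0.07, 95% interval -0.02 to 0.15) and VIM at 1039, 1020 and 1030 FPKM (0.06, 95% interval -0.03 to 0.14), the latter above its controls without overlap. ZEB2 was at 3.54, 3.97 and 4.05 FPKM (0.10, 95% interval -0.05 to 0.25), SNAI1 at 3.12, 3.18 and 3.38 FPKM (-0.03, 95% interval -0.24 to 0.19) and EPCAM at 0.79, 1.08 and 1.15 FPKM (-0.07, 95% interval -0.29 to 0.15). TWIST1 was at 6.86, 5.43 and 5.10 FPKM (0.13, adjusted p 0.303), and with the GC trend removed it was called at 0.25 with an adjusted p of 0.0461. CDH1, under the filter, was at 0.71, 0.68 and 0.74 FPKM, above its controls without overlap (exact permutation p 0.10). ESRP1 was at 0.04, 0 and 0.02 FPKM. In all, 2 of 8 tested genes rose and 0 fell, where 38.4% of all genes tested were called, 14.8% higher and 23.6% lower.

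In BEAS-2B, limma called 0 of the 8 tested genes and 0% of all 11734 genes, of which 1446 had an unadjusted p under 0.05. The fit of all 18 libraries, which shares the spread of the other lines, called 842 of 13071 genes (6.44%) in BEAS-2B and 0 of the 9 it tested. SNAI2 had the largest difference of the 8. It was at 5.0 FPKM in irradiated replicate 1 and 6.12 in replicate 3, against 1.53 to 1.79 in the controls, while replicate 2 was below the controls at 1.02 FPKM. The difference was 0.74 (SE 0.36, adjusted p 0.427). Without irradiated replicate 2 it was 1.30 (SE 0.11, adjusted p 0.000137), the only one called of the 7 genes still past the filter, where 1.99% of 11680 genes were. The SNAI2 level thus split the irradiated BEAS-2B libraries in the way the p53 target genes did, and what set replicate 2 apart was not tested.

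The other genes of BEAS-2B overlapped between arms, with the exception of ZEB2. ZEB2 was at 6.48, 6.17 and 6.58 FPKM after 10 Gy, all below the lowest control at 6.85 FPKM, but its difference of -0.14 (95% interval -0.31 to 0.04) had an adjusted p of 0.50. ZEB1 was at 6.30, 5.77 and 7.33 FPKM (-0.13, 95% interval -0.35 to 0.09). SNAI1 was at 1.30, 1.40 and 0.81 FPKM (0.20, 95% interval -0.07 to 0.47) and TWIST1 at 6.82, 7.34 and 5.76 FPKM (-0.01, 95% interval -0.23 to 0.20). CDH2 was at 42.7, 43.2 and 36.5 FPKM (-0.02, 95% interval -0.26 to 0.22) and VIM at 968, 1047 and 806 FPKM (0.06, 95% interval -0.20 to 0.33). The interval of CDH2 did not reach the A549 difference of -0.41, while that of VIM held the A549 difference of -0.13. EPCAM was at 2.46, 2.03 and 2.69 FPKM (0.02, 95% interval -0.28 to 0.32). CDH1 was at 0.54, 0.53 and 0.36 FPKM and ESRP1 at 0.02, 0.05 and 0.07 FPKM, both under the filter (exact permutation p 0.90 each). Without irradiated replicate 2, the differences of the other genes still past the filter were -0.06 for CDH2, -0.02 for VIM, -0.06 for ZEB1, -0.11 for ZEB2, -0.08 for TWIST1 and 0.10 for EPCAM, with adjusted p between 0.704 and 0.977, and SNAI1 was under the filter.

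The differences between responses were tested in the fit of 18 libraries. CDH1 responded more in A549 than in BEAS-2B by 0.47 (SE 0.11, adjusted p 0.00355) and than in H446 by 0.38 (SE 0.11, adjusted p 0.012), but CDH1 was under the filter in both of those lines and entered this fit through A549 alone, where it was high. With a pseudocount of 0.1 both calls were lost, at -0.49 for BEAS-2B minus A549 (adjusted p 0.132) and 0.30 for A549 minus H446 (adjusted p 0.356). CDH2 responded in A549 below BEAS-2B by 0.39 (SE 0.11, adjusted p 0.0108) and below H446 by 0.47 (SE 0.11, adjusted p 0.00239). Without BEAS-2B irradiated replicate 2, BEAS-2B minus A549 was -0.50 for CDH1 (adjusted p 0.00383) and 0.35 for CDH2 (adjusted p 0.0249). For VIM the A549 response was not shown to differ from that of BEAS-2B (0.20 lower, adjusted p 0.224) or H446 (0.19 lower, adjusted p 0.229) in the fit of 18 libraries. The fit of the 12 libraries of A549 and H446 called the latter (-0.19, SE 0.05, adjusted p 0.00762).

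SNAI2 responded more in BEAS-2B than in A549 by 1.17 (SE 0.39, adjusted p 0.0299). This was 1.74 (SE 0.11, adjusted p 4.68e-09) without BEAS-2B irradiated replicate 2, 0.95 (adjusted p 0.0857) without replicate 1 and 0.83 (adjusted p 0.0662) without replicate 3. It was also lost without BEAS-2B control replicate 3 (1.14), without A549 control replicate 1 or 3 (1.17 and 1.15) and without A549 irradiated replicate 1 or 2 (1.16 and 1.15), with adjusted p between 0.0532 and 0.0574, without a filter (adjusted p 0.0653), with a pseudocount of 0.1 (1.41, adjusted p 0.0625) and with the 12 libraries of both lines (adjusted p 0.0647). Between A549 and H446, the SNAI2 responses had opposite signs with no overlap in either line. Their difference was -0.79 (SE 0.39, adjusted p 0.128) in the fit of 18 libraries and -0.79 (SE 0.09, adjusted p 9.13e-06) in that of the 12 libraries of these lines. Between BEAS-2B and H446 the difference was 0.38 (adjusted p 0.504), and 0.95 (adjusted p 2.39e-05) without BEAS-2B irradiated replicate 2.

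ZEB1 responded less in BEAS-2B than in H446, by -0.31 (SE 0.10, adjusted p 0.0351). The call was lost with the GC trend removed (-0.14, adjusted p 0.219) and without BEAS-2B irradiated replicate 2 (-0.24, adjusted p 0.0891). It was also lost without BEAS-2B control replicate 1 or 3 (-0.26 and -0.32), irradiated replicate 1 (-0.30), H446 control replicate 1, 2 or 3 (-0.32, -0.29 and -0.32) and H446 irradiated replicate 2 or 3 (-0.28 and -0.30), with adjusted p between 0.0514 and 0.102, without a filter (adjusted p 0.0504) and with the 12 libraries of both lines (adjusted p 0.0728). ZEB2 was near the threshold against H446, at -0.23 for BEAS-2B (SE 0.08, adjusted p 0.0542) and -0.22 for A549 (SE 0.08, adjusted p 0.0516). The ZEB2 difference of BEAS-2B was called with quantile normalization (-0.31, adjusted p 0.0179), with no trend in eBayes (adjusted p 0.0374) and without BEAS-2B irradiated replicate 3 (-0.25, adjusted p 0.0387) or H446 irradiated replicate 1 (-0.28, adjusted p 0.0256). That of A549 was called with quantile normalization (-0.33, adjusted p 0.00673), with no trend (adjusted p 0.0341), with the 12 libraries of both lines (adjusted p 0.0462) and without A549 control replicate 2 (-0.25, adjusted p 0.0485) or H446 irradiated replicate 1 (-0.27, adjusted p 0.0231). With those 12 libraries the ZEB1 difference of A549 minus H446 was also called (-0.21, SE 0.07, adjusted p 0.026), which it was not with 18 (adjusted p 0.113). In all, the tests called 3 of 9 genes between BEAS-2B and A549 (30.6% of all genes), 1 of 9 between BEAS-2B and H446 (22.7%) and 2 of 9 between A549 and H446 (34.6%). Each pair of these tests shares the libraries of a line.

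Genes of the wider lists moved in both directions in irradiated A549. Of 34 tested genes of epithelial junctions and surface, 16 rose and 10 fell (median 0.08), where 25.3% of all genes tested rose and 26.4% fell. CD24 rose from 105 ± 3.31 to 176 ± 0.72 FPKM and the plakin PPL of desmosomes from 3.11 ± 0.20 to 5.49 ± 0.27 FPKM, while the tight junction claudin CLDN1 fell from 133 ± 3.76 to 76.4 ± 3.0 FPKM. Of 10 epithelial regulators, 3 rose and 4 fell. The epithelial ETS factor ELF3 rose from 12.7 ± 1.04 to 22.03 ± 1.31 FPKM and GATA3 fell from 3.14 ± 0.25 to 1.37 ± 0.11 FPKM.

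Of 36 tested mesenchymal genes, 12 rose and 13 fell in A549 (median -0.04), beside the same 25.3% and 26.4% of all genes. Smooth muscle actin ACTA2 rose from 14.4 ± 0.44 to 45.9 ± 1.71 FPKM (difference 1.61, SE 0.04, adjusted p 1.61e-10), in the opposite direction to CDH2 and VIM. The fibrillin FBN2 rose from 6.80 ± 0.19 to 11.5 ± 0.67 FPKM. The receptor kinase AXL fell from 120 ± 5.68 to 80.7 ± 2.51 FPKM and CDH11 from 50.1 ± 2.49 to 36.9 ± 2.23 FPKM. Of 17 other transition factors, 5 rose and 6 fell, among them SOX4 from 19.0 ± 1.2 to 28.7 ± 1.54 FPKM, and ETS1 from 53.3 ± 1.24 down to 27.4 ± 0.99 FPKM. Of 10 splicing factors, 1 rose and 4 fell.

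In irradiated H446, 15 of 34 tested mesenchymal genes rose and 0 fell, against 14.8% and 23.6% of all genes (median 0.09, against -0.03). The matrix protein THBS1 rose from 13.8 ± 0.24 to 17.9 ± 1.06 FPKM and the secreted glycoprotein FSTL1 from 77.7 ± 2.46 to 99.5 ± 4.13 FPKM. With the GC trend removed, 17 rose and 0 fell, where 31.0% of all 11378 genes tested were called (1817 higher, 1706 lower). In the fit of 18 libraries 9 of 45 rose and 0 fell, where 24.2% of all genes were called (1154 higher, 2003 lower). Of 36 epithelial junction and surface genes, 8 rose and 9 fell, and with the GC trend removed 12 rose and 3 fell. CD24 rose from 67.9 ± 2.58 to 98.7 ± 0.34 FPKM and the integrin ITGB4 of hemidesmosomes fell from 60.9 ± 2.12 to 45.2 ± 3.93 FPKM. Of 16 other transition factors, only TCF3 was called, which fell from 23.6 ± 0.48 to 20.8 ± 1.66 FPKM. The counts of this list were 2 higher and 0 lower with the GC trend removed, 2 higher and 1 lower with quantile normalization and 0 in the fit of 18 libraries. Of 7 epithelial regulators, 3 rose and 1 fell, the last being ESRP2, from 13.0 ± 0.08 to 11.6 ± 0.60 FPKM. The fall of ESRP2 was not called with quantile normalization, with the GC trend removed or in the fit of 18 libraries, each of which called 3 regulators higher and 0 lower.

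**Figure D4:**
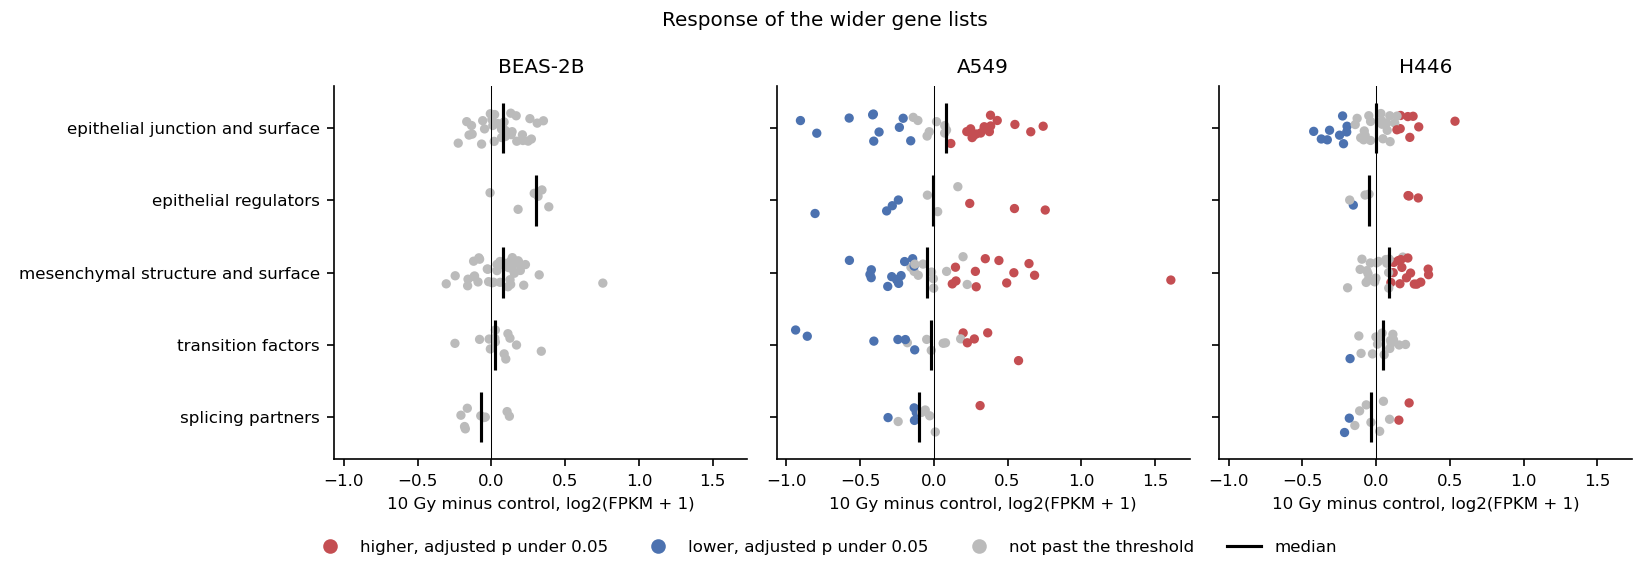
Difference in log2(FPKM + 1) between 10 Gy and control for the tested genes of 5 lists in each line, 1 point a gene with vertical jitter and a black bar at the median. Red points rose and blue points fell at an adjusted p under 0.05. A549 has called genes on both sides in each list, H446 has 15 risers and 0 fallers among mesenchymal genes, and BEAS-2B has no called gene.

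In BEAS-2B no gene of these lists was called with the 6 libraries of the line. In the fit of 18 libraries, 6.44% of all genes were called (515 higher, 327 lower). There, 3 of 42 epithelial junction and surface genes were higher and 1 lower, and 3 of 12 epithelial regulators were higher and 0 lower. In the same fit, 3 of 45 mesenchymal genes were higher and 1 lower, 2 of 18 other transition factors were higher and 1 lower, and 0 of 11 splicing factors were called. Without irradiated replicate 2, 1 of 40 mesenchymal genes and 1 of 6 epithelial regulators were called, both higher, and 0 of 35 epithelial junction and surface genes, 0 of 13 other transition factors and 0 of 9 splicing factors were, where 1.99% of all genes were called.

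The genes whose pattern over the 18 libraries was most like that of each of the genes above were found among 12244 genes with a mean of at least 1 FPKM. The points share 3 lines, so these correlations follow the differences between lines and are given as a description. CDH1 was most like GPRIN3 (Pearson r 0.998), HAS3 (0.998) and LOC388282 (0.997). SNAI2 was most like the growth factor AREG (0.976), the phosphatase DUSP5 (0.945) and the GTPase RHOB (0.914). ZEB1 was most like FIGN (0.986), ITGAV (0.984) and ARHGAP12 (0.984), and ZEB2 most like ITGBL1 (0.987), ZNF711 (0.984) and DCTN4 (0.983). CDH2 was most like LONP1 (0.973), HDGF (0.967) and CDC42EP2 (0.962), and VIM most like ACTN4 (0.985), SNRNP200 (0.979) and SAMD4B (0.977). For EPCAM the genes were ICAM1 (0.971), KIAA1958 (0.970) and KCTD12 (0.969), and for SNAI1 HPCAL1 (0.964), PWWP2B (0.952) and FGFR4 (0.951). TWIST1 had no close match, with EME1 at 0.811, PCGF3 at 0.795 and PHYKPL at 0.794.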

How the data were processed

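Expression values of 3 human lung cell lines were analysed. The 3 control and 3 irradiated libraries of each line were assigned from the sample titles. The authors deposited 1 table of normalized values, taken here to be FPKM. The unit was inferred, since no source used here names it: the values have 2 decimals, their totals are not equal, and the smallest steps are wider for genes with short transcripts. The submitters' processing notes name HISAT2 2.0.4, Bowtie2 2.2.5, RSEM 1.2.12 and hg38, with no role or order. The depth per library is unknown.

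Genes with at least 1 FPKM in at least 3 of the 6 libraries of a line were tested on log2(FPKM + 1) in R 4.3.3 with limma 3.58.1 (lmFit followed by eBayes, trend on), with Benjamini-Hochberg adjustment at 0.05. Responses were fitted within each line (6 libraries). Control lines and differences between responses were fitted over all 18 libraries with 6 group means, for the 13071 genes past the filter in any line. Genes under the filter got an exact two-sided permutation test. The script was tested on simulated data. Positions and GC content come from GENCODE 29, and upstream sequences from RefSeq. Of 18475 Entrez identifiers, 18181 were matched to a name. At most 2.97% of non-zero values were identical between replicates.

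The 10 genes and the wider lists (48, 18, 47, 25 and 11 genes, and 10 p53 targets) were chosen with earlier results of these data known. From the lists, the 2 largest called rises and 2 largest called falls with no overlap of groups were named per list and comparison. A gene named for 1 comparison is also given in other lines. Some genes within this rule are not reported here. Leukocyte markers were checked too: 3 genes summed to 7.38 to 9.20 FPKM in BEAS-2B controls, from CD14, and to at most 0.64 FPKM in the controls of the other lines. The alternatives were quantile normalization, equal totals, removal of a loess trend on GC content (span 0.5), no trend in eBayes, no filter, at least 1 FPKM in every library, a pseudocount of 0.1, the replicate number as a block, a stricter threshold of 0.01, absolute differences of at least 1, other sets of libraries in the fit, and each library left out in turn. Python 3.11.15 with numpy 2.4.6, pandas 2.3.3, scipy 1.17.1 and matplotlib 3.10.9 was used for tables and plots.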

Additional observations from a re-analysis of the deposited data

Results flagged for a closer look

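The responses to 10 Gy differed between lines by the interaction test (limma, 18 libraries, adjusted p under 0.05) in 6 cases. The difference in response of BEAS-2B minus A549 was -0.47 for CDH1, 0.39 for CDH2 and 1.17 for SNAI2. CDH1 entered these tests through A549 alone, being under the filter in the other lines, and with a pseudocount of 0.1 it was not called in either comparison (adjusted p 0.132 against BEAS-2B and 0.356 against H446). The difference of BEAS-2B minus H446 was -0.31 for ZEB1. That of A549 minus H446 was 0.38 for CDH1 and -0.47 for CDH2. The SNAI2 value changed to 1.74 without BEAS-2B irradiated replicate 2, and was no longer called without irradiated replicate 1 (0.95, adjusted p 0.0857) or 3 (0.83, adjusted p 0.0662). The ZEB1 call was lost in most of the fits that left out 1 library of these lines, with -0.24 (adjusted p 0.0891) without BEAS-2B irradiated replicate 2. Groups of 3 libraries are too small for a test of single outlying libraries, and none was made.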

How the results depend on the processing

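Counts of the 10 genes called changed by over 1.5 times in the following settings. With an absolute difference of at least 1 they were 3, 2 and 1 between controls (A549 against BEAS-2B, H446 against BEAS-2B, H446 against A549, from 9, 7 and 7), 0 for the H446 and A549 responses (from 2 and 4), and 1, 0 and 0 for the differences in response (BEAS-2B minus A549, BEAS-2B minus H446, A549 minus H446, from 3, 1 and 2). At an adjusted p under 0.01 they were 1 for the H446 response and 1, 0 and 1 for the differences in response. With at least 1 FPKM in every library they were 4 for H446 against A549 controls and 1 for A549 minus H446. With a pseudocount of 0.1 they were 1 for both differences with A549. Without a filter they were 1 for the H446 response and 0 for BEAS-2B minus H446, with the GC trend removed 0 and with quantile normalization or no trend in eBayes 2 for the latter. All 18 libraries in 1 fit gave 0 for the H446 and 2 for the A549 response, and the 12 libraries of both lines 0 for BEAS-2B minus H446 and 6 for A549 minus H446. Other counts moved by less. With quantile normalization, for example, they were 8 for A549 (from 9) and 9 for H446 (from 7) against BEAS-2B controls, and at an adjusted p under 0.01 they were 3 for the A549 response (from 4).

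Leaving out 1 library gave 0 to 1 genes in the BEAS-2B response (1 without irradiated replicate 2), 1 to 2 in the H446 response and 0 to 2 in BEAS-2B minus H446. The cause of these changes was not tested, apart from fewer genes or libraries in the fit. With a pseudocount of 0.1, the cadherin balance was -6.23 and -6.16 in BEAS-2B control and 10 Gy, -2.27 in A549 control, and -6.16 and -5.98 in H446 control and 10 Gy.

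The sign changed for some genes that were not called in either setting. With the GC trend removed, CDH2 in BEAS-2B was at 0.00, SNAI1 in H446 at 0.11, and BEAS-2B minus A549 at 0.00 for ZEB1 and 0.08 for ZEB2. With quantile normalization SNAI1 in H446 was at 0.06 and ZEB2 in BEAS-2B minus A549 at 0.02, and with equal totals the latter was at 0.01. Over the fits that left out 1 library, the BEAS-2B response ranged from -0.09 to 0.16 for EPCAM, -0.12 to 0.08 for CDH2, -0.02 to 0.17 for VIM and -0.08 to 0.07 for TWIST1. That of H446 ranged from -0.12 to 0.01 for EPCAM and -0.13 to 0.08 for SNAI1, and that of A549 from -0.16 to 0.15 for SNAI1. BEAS-2B minus A549 ranged from -0.04 to 0.02 for ZEB2 and BEAS-2B minus H446 from -0.19 to 0.01 for CDH2.

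The labels do not say whether the replicate numbers pair the libraries, and the main fits used no pairing. The correlations that follow do not settle the question. The correlation of the deviations of same-numbered control and irradiated libraries was -0.13, 0.32 and 0.31 in BEAS-2B, 0.01, -0.05 and -0.10 in A549 and 0.19, 0.01 and 0.08 in H446, and not every library correlated best with its own number. With the replicate block, the BEAS-2B response called 439 of 11734 genes (3.74%) in place of 0, and 1 of the 10 genes, SNAI2 (0.74, adjusted p 0.0255). The call of SNAI1 between H446 and A549 controls was lost (adjusted p 0.0518).

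The depth is unknown, so a gene near 0, such as ESRP1, cannot be told from one not expressed. With 3 libraries a group, no exact test of 1 gene can go below 0.10.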
